A study of Mus musculus with 8 samples.

Results

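The neurofilament and neuronal microtubule genes are 10 genes of the neuronal cytoskeleton, taken by name: the neurofilament subunits Nefl, Nefm, Nefh and Ina, the neuron-type β-tubulin Tubb3, the microtubule-associated proteins Map2, Mapt and Dcx, and the stathmins Stmn2 and Stmn3. All 10 were found among the 24849 genes listed, and all 10 were among the 13214 genes tested, which had a mean FPKM (fragments mapped to a gene, scaled for transcript length and library size) over 1 in at least 1 condition. Poly(A)+ RNA had been sequenced from mouse embryonic stem cells (mESCs) of the MPI-II line, which derives from strain 129S2/SvPas. The wild type was compared with Pcgf5-/- cells, which lack PCGF5, a subunit of the Polycomb repressive complex PRC1, after TALEN cutting in the second exon with insertion of puromycin and neomycin resistance cassettes. Cells of day 0 were kept on feeder cells with serum, LIF and 2i, and cells of day 6 had been induced to neural differentiation as a monolayer in N2B27 medium. Each of the 4 conditions had 2 samples. The knockout cells came from single picked colonies, and the sources used here do not say whether both Pcgf5-/- samples came from 1 clone. A difference between the genotypes and one between clones therefore cannot be told apart.

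Neurofilaments are the intermediate filaments of axons. In the central nervous system they are built from the light (Nefl), medium (Nefm) and heavy (Nefh) chains and from α-internexin (Ina), which in the developing brain appears before the others. Microtubules are polymers of α- and β-tubulin; TUBB3 is the β-tubulin used as a marker of young neurons, MAP2 stabilizes microtubules in dendrites, tau (Mapt) does so in axons, and doublecortin (Dcx) marks migrating and newly born neurons. Stathmins bind free tubulin and destabilize microtubules, and Stmn2 and Stmn3 are among their neuronal members.

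RefSeq promoter sequences (build GRCm38.p6) were at hand for Tubb3, Ina, Stmn3, Map2 and Dcx, with none used for Nefl, Nefm, Nefh, Mapt and Stmn2. The 250 bases before the start are shown for 3 genes that behaved differently at day 6: Tubb3 and Stmn3, which were lower in Pcgf5-/- cells, and Ina, whose samples overlapped between the genotypes. Capitals mark matches, on either strand unless stated, to the GC box motif GGGCGG, seen from the other strand as CCGCCC, to the CCAAT box, seen from the other strand as ATTGG, to the E-box CAGCTG, to the E-box CAGATG, seen from the other strand as CATCTG, and to TATAAA, searched on the gene strand only. No 2 of these motifs overlapped as printed.
Tubb3, chr8:123411303-123411552, plus strand: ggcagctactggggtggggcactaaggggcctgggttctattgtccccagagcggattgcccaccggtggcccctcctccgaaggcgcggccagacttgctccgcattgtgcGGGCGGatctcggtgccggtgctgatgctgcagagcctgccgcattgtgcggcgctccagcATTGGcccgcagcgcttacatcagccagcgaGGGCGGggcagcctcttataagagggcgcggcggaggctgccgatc
Ina, chr19:47014431-47014680, plus strand: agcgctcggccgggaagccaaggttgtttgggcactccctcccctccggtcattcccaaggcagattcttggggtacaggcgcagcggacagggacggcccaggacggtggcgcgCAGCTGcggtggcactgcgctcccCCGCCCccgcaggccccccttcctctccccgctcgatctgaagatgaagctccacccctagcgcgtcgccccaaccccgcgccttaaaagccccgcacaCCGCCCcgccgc
Stmn3, chr2:181314501-181314750, minus strand: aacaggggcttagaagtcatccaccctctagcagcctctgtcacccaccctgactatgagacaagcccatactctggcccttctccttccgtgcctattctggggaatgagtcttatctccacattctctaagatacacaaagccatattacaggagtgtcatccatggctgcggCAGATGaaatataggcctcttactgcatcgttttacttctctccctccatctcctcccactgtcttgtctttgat
The windows of Tubb3 and Ina held 68.0% and 70.8% G and C with 21 and 25 CpG dinucleotides, and that of Stmn3 held 48.8% with 3. The median over all 32851 promoters was 52.4%. A GC box stood in the windows of Tubb3 (2 matches), Ina (2 matches) and Map2 (5 matches) and in 32.7% of all promoters. CAGCTG was found for Ina and in 13.0% of promoters, CAGATG for Stmn3 and in 14.4%, a CCAAT box for Tubb3 and 1 of the 2 annotated starts of Dcx and in 33.8%, and TATAAA at both starts of Dcx and in 7.59%. The 2 promoters of genes lower in Pcgf5-/- cells thus shared none of the searched motifs.

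The targeted gene was read first. At day 0 Pcgf5 stood at 5.18 and 3.63 FPKM in wild type, against 1.28 and 1.84 in the knockout, and at day 6 at 9.16 and 5.06 against 0.669 and 0.457, so the genotypes did not overlap at either day. Its log2 fold change was -1.07 ± 0.28 at day 0 (SE, adjusted p = 0.105), which did not pass the test, and -2.33 ± 0.28 at day 6 (adjusted p = 0.00421). Markers of neural progenitors summed to 316.0 and 298.2 FPKM in wild type at day 6, against 98.1 and 115.0 in Pcgf5-/- cells and 7.86 to 10.2 in the samples of day 0. At day 6 pluripotency markers summed to 394.1 and 169.6 in wild type, against 1103 and 1025 without PCGF5, and they summed to 2156 to 2370 at day 0. Feeder fibroblast markers summed to 176.2 to 592.3 FPKM at day 0 and to 15.4 to 38.6 at day 6. Depth relative to 1 sample, traced in the low FPKM values, lay between 0.889 and 1.153.

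In wild type, 6 of the 10 genes rose over the 6 days (Nefm, Ina, Tubb3, Map2, Dcx and Stmn3), 1 fell (Stmn2) and 3 did not pass the test (Nefl, Nefh and Mapt). Of all genes tested, 34.2% were called higher and 16.2% lower in this comparison. In Pcgf5-/- cells 5 of the 10 rose (Ina, Tubb3, Map2, Dcx and Stmn3) and 2 fell (Mapt and Stmn2), where 21.9% of all genes were called higher and 10.4% lower. At day 6, 4 of the 10 were lower in Pcgf5-/- cells than in wild type (Nefm, Tubb3, Stmn2 and Stmn3) and 1 was higher (Nefh), where 7.05% of all genes were called lower and 9.57% higher. The count of higher genes was thus near that of all genes, and the count of lower genes above it. The median log2 fold change between the genotypes at day 6 was -1.01 over the 10 genes and 0.02 over all genes tested. The 10 genes were chosen with earlier results of these data known. These counts and medians are therefore a description and no independent evidence about the set. At day 0 none of the 10 was called, where 0.333% of all genes were called in either direction, while 5 of the 10 and 17.4% of all genes had an unadjusted p under 0.05. These are bulk samples, in which fewer neurons, less RNA per neuron and a change of RNA in other cells cannot be told apart. In wild type at day 0 the means were already 122.6 FPKM for Stmn2, 38.7 for Tubb3 and 25.9 for Nefl, while that of Dcx was 0.00321.

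**Figure D1:**
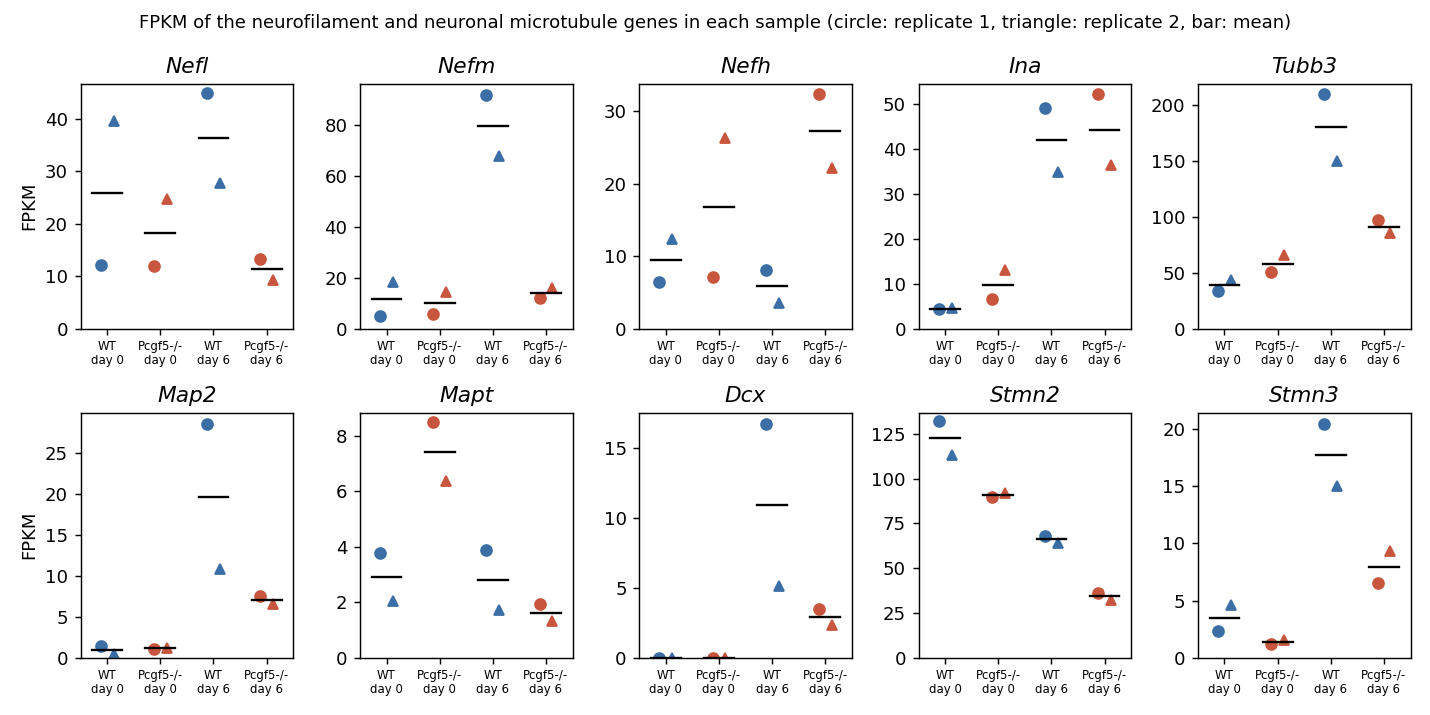
FPKM of the 10 genes in each sample, on a linear axis for each gene, with the mean of the 2 samples as a bar. Nefm reached 92.1 and 67.8 FPKM in wild type at day 6 and 12.0 and 15.9 in Pcgf5-/- cells, while Nefh stood at 8.15 and 3.60 against 32.4 and 22.2.

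The neurofilament subunits did not move together. Nefm, the medium chain, lies on chromosome 14 from 68737602 to 68743061 (mm9, as are all coordinates from here on). The locus shares 1253 bp with A230070E04Rik, whose mean was 0.271 FPKM in wild type and 0.184 in the knockout at day 6. The GENCODE vM1 model of Nefm, on the minus strand from 68700647 to 68742903, also spans Nefl on the plus strand. The locus listed with the FPKM values does not reach Nefl. Without strand information reads in such shared stretches cannot be told apart. Nefm was at 4.82 and 18.3 FPKM in wild type at day 0 and at 92.1 and 67.8 at day 6, a rise of 6.91-fold in the means (log2 fold change 2.92 ± 0.56 SE, adjusted p = 0.00307). Without PCGF5 it was at 5.63 and 14.6 at day 0 and at 12.0 and 15.9 at day 6, where the days overlapped (adjusted p = 0.490). Its mean at day 6, 79.9 ± 17.2 FPKM in wild type and 13.9 ± 2.73 in Pcgf5-/- cells (SD, n = 2 each), was 5.73-fold lower without PCGF5 (log2 fold change -2.43 ± 0.56, adjusted p = 0.0237). The genotype effect on Nefm at day 6 minus that at day 0, the interaction, was -2.37 ± 0.79 (adjusted p = 0.126). A different change over time in the 2 genotypes was thus not shown.

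Nefl, the light chain, lies beside Nefm, from 68701941 to 68705794. Its samples of day 6 did not overlap either, at 45.0 and 27.8 FPKM in wild type and 13.3 and 9.30 in Pcgf5-/- cells, a 3.22-fold lower mean, but the difference did not pass the test (log2 fold change -1.58 ± 0.52, adjusted p = 0.0738). At day 0 it stood at 12.2 and 39.6 in wild type and 12.0 and 24.7 in Pcgf5-/- cells. The second sample was the higher in both genotypes, and the wild-type days overlapped. The other 3 genes tested within 500 kb of this pair, Cdca2, Dock5 and Kctd9, had log2 fold changes between the genotypes at day 6 of 0.12, 0.64 and -0.01, and none was called.

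Nefh, the heavy chain, went the other way. At day 6 it was at 8.15 and 3.60 FPKM in wild type, against 32.4 and 22.2 in Pcgf5-/- cells, so its mean was 4.64-fold higher without PCGF5 (log2 fold change 2.10 ± 0.57, adjusted p = 0.0394). At day 0 the genotypes overlapped, with 6.51 and 12.4 FPKM in wild type and 7.20 and 26.3 in Pcgf5-/- cells. Neither genotype changed past the threshold between the days (adjusted p = 0.382 for wild type and 0.260 for the knockout).

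Genes around Nefh were read beside it. Nefh lies on chromosome 11 from 4838759 to 4848067, and the genes of chromosome 11 as a group had a median log2 fold change between the genotypes of 0.48 at day 0 and 0.38 at day 6, as had those of chromosome 6 (0.41 and 0.37), where the other chromosomes had medians from 0.04 to 0.12 at day 0 and from -0.06 to 0.03 at day 6. Of the 16 tested genes within 500 kb of Nefh, 6 were called higher and 1 lower at day 6, with a median of 0.46. With the chromosome's median subtracted Nefh kept 1.72, with adjusted p = 0.0817. The locus shares 544 bp with Ap1b1, whose mean at day 6 was 26.6 FPKM in wild type, against 37.0 in Pcgf5-/- cells, and no strand information was given, so that reads in this stretch cannot be assigned to either gene. The part of the shared stretch in the result was not tested.

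Ina, the α-internexin gene on chromosome 19 from 47089188 to 47098836, rose in both genotypes and reached the same range. It went from 4.44 and 4.51 FPKM to 49.2 and 35.0 in wild type (9.41-fold, log2 fold change 2.96 ± 0.30, adjusted p = 0.000152) and from 6.56 and 13.0 to 52.2 and 36.5 in Pcgf5-/- cells (4.54-fold, 2.12 ± 0.30, adjusted p = 0.00194). At day 6 the genotypes overlapped, and the log2 fold change of 0.07 had a 95% confidence interval from -0.63 to 0.77 (adjusted p = 0.898), which does not show equal levels. The rise of Ina was not shown to differ between the genotypes (interaction -0.84 ± 0.43, adjusted p = 0.2855). The locus shares 492 bp with Nt5c2, at mean FPKM of 16.4 and 16.2 at day 6.

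The make-up of the neurofilament family therefore differed at day 6. As a share of the summed FPKM of the 4 subunits, Nefm took 47.4% and 50.5% in the wild-type samples and 10.9% and 18.9% in the Pcgf5-/- samples. Nefh took 4.19% and 2.69% in wild type and 29.5% and 26.5% in Pcgf5-/- cells, and Ina took 25.3% and 26.1% against 47.5% and 43.6%. The genotypes did not overlap in any of these shares, nor in that of Nefl (23.1% and 20.7% against 12.1% and 11.1%). In the means, Nefh went from 19.9% at day 0 to 3.44% in wild type and from 28.2% to 28.0% in Pcgf5-/- cells. Nefm went from 20.9% to 48.95% and from 18.2% to 14.9%. Ina rose in both genotypes (10.9% to 25.7% and 18.7% to 45.5%), and Nefl fell in both (48.3% to 21.9% and 34.85% to 11.6%). Shares of a sum are tied to each other, so these are a description of the same 4 values and carry no test. The sum was 164.3 ± 42.6 FPKM in wild type and 96.9 ± 18.4 in Pcgf5-/- cells (SD, n = 2 each).

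**Figure D2:**
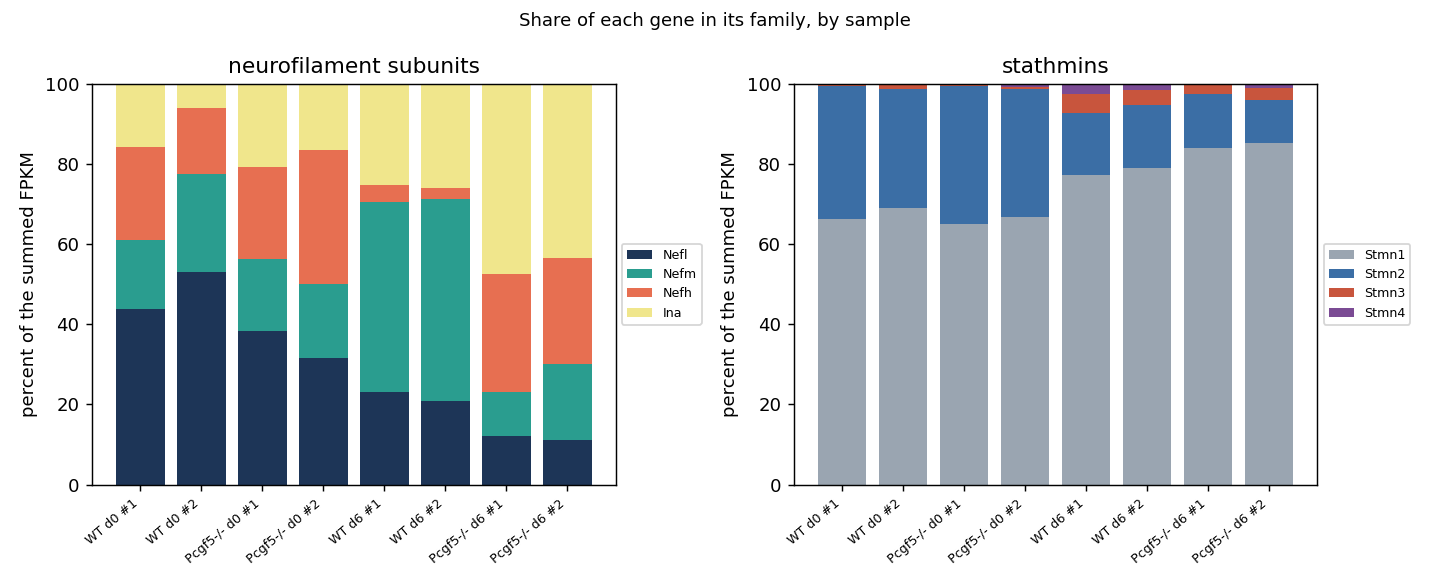
Each gene as a percent of the summed FPKM of its family, by sample (d0 and d6 are days, #1 and #2 the replicate numbers). Nefm was the largest part of the neurofilament sum in both wild-type samples of day 6, at 47.4% and 50.5%, and Ina in both Pcgf5-/- samples, at 47.5% and 43.6%; Stmn1 was the largest part of the stathmin sum in all 8 samples.

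Tubb3 was the member with the highest level in both genotypes at day 6. The gene lies on chromosome 8 from 125935464 to 125945910. It rose from 33.8 and 43.7 FPKM to 210.0 and 149.4 in wild type (4.64-fold, log2 fold change 2.18 ± 0.21, adjusted p = 0.000102). The rise in Pcgf5-/- cells was from 50.5 and 65.7 to 96.7 and 85.4 (1.57-fold, 0.65 ± 0.21, adjusted p = 0.0441). The mean at day 6 was 1.97-fold lower in Pcgf5-/- cells, with samples that lay apart (log2 fold change -0.955 ± 0.21, adjusted p = 0.0203).

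At day 0 the order was the other way, with both Pcgf5-/- samples above both wild-type samples (0.57 ± 0.21, adjusted p = 0.204). The genotype effect on Tubb3 at day 6 minus that at day 0 was -1.53 ± 0.29 (adjusted p = 0.0390). It was the only 1 of the 10 genes called in this test of the interaction, where 3.09% of all genes were called, and 6 of the 10 had an unadjusted p under 0.05, as had 23.2% of all genes. Estimates of similar or larger size with larger SE were not called: Nefm (-2.37 ± 0.79), Mapt (-1.61 ± 0.47), Map2 (-1.46 ± 0.58) and Dcx (-1.43 ± 0.60). Of the 10 estimates 9 were below 0 and 1 above. Their median was -1.34, against -0.10 over all genes tested. With any 1 of the 8 samples left out Tubb3 no longer passed, with adjusted p-values from 0.0512 to 0.129.

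Among β-tubulins Tubb3 held 16.4% and 11.7% of the summed FPKM in wild type at day 6 and 9.38% and 7.79% in Pcgf5-/- cells, from 3.53% to 5.39% in all samples of day 0. Tubb5, a widely expressed β-tubulin, held the most in each genotype (43.9% and 46.0% in the means of day 6), and Tubb4b held 17.8% and 25.4%. Tubulin genes are alike in sequence, and how reads that fit several of them were counted is not given in the sources used here. Of 10 other tubulin genes tested, 1 was higher and 3 were lower in Pcgf5-/- cells at day 6, with a median log2 fold change of -0.10. The higher gene was the α-tubulin gene Tuba4a (1.63, adjusted p = 0.0111), and Tubb2b (-0.84, adjusted p = 0.00564) and Tubb2a (-0.56, adjusted p = 0.0410) were among the lower ones.

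The microtubule-associated members differed among themselves. Map2, on chromosome 1 from 66221903 to 66489157, rose in wild type from 1.36 and 0.402 FPKM to 28.5 and 10.8 (log2 fold change 3.36 ± 0.41, adjusted p = 0.000353) and in Pcgf5-/- cells from 1.10 and 1.19 to 7.47 and 6.56 (1.90 ± 0.41, adjusted p = 0.0105). Both wild-type samples of day 6 were above both Pcgf5-/- samples, by 2.80-fold in the means, yet the difference did not pass the test (-1.22 ± 0.41, adjusted p = 0.0785). The 2 wild-type samples stood far apart. The rise of Map2 was not shown to differ between the genotypes (interaction -1.46 ± 0.58, adjusted p = 0.186).

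Dcx, on chromosome X from 140290385 to 140367762, was listed at 0 in 3 of the 4 samples of day 0 and at 0.00642 FPKM in the fourth. At day 6 it was at 16.7 and 5.14 in wild type and at 3.48 and 2.30 in Pcgf5-/- cells. The rise passed the test in both genotypes (adjusted p = 0.000396 and 0.0108); no fold is given against a level of 0. The samples of day 6 did not overlap, and the 3.78-fold lower mean in Pcgf5-/- cells missed the threshold (log2 fold change -1.44 ± 0.43, adjusted p = 0.0533). The interaction of Dcx did not pass either (-1.43 ± 0.60, adjusted p = 0.202).

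Mapt, the tau gene on chromosome 11 from 104092750 to 104193403, had a pattern of its own. It was at 3.78 and 2.05 FPKM in wild type at day 0 and at 3.87 and 1.71 at day 6, so the days overlapped (adjusted p = 0.872). In Pcgf5-/- cells it fell from 8.48 and 6.36 to 1.93 and 1.31, 4.57-fold in the means (log2 fold change -1.68 ± 0.33, adjusted p = 0.00725). The genotypes lay apart at day 0, with Pcgf5-/- cells the higher (1.13 ± 0.33, adjusted p = 0.135), and overlapped at day 6. Its change was not shown to differ between the genotypes (interaction -1.61 ± 0.47, adjusted p = 0.0989). The 7 tested genes within 500 kb had a median log2 fold change between the genotypes of 0.50 at day 0, beside the chromosome's 0.48.

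Other microtubule-associated proteins were lower at day 6 in 3 of 16 genes and higher in none, with a median log2 fold change of -0.32. The lower genes were the growth cone proteins Dpysl5 (-1.73, adjusted p = 0.00421) and Dpysl3 (-1.56, adjusted p = 0.0308) and the doublecortin-like kinase Dclk1 (-1.36, adjusted p = 0.0151). In wild type 10 of these 16 rose over the 6 days and 1 fell, and in Pcgf5-/- cells 6 rose and 1 fell.

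The stathmins moved in opposite directions with time and were both lower without PCGF5. Stmn2, on chromosome 3 from 8509527 to 8561604, was the member with the highest level at day 0, at 132.0 and 113.2 FPKM in wild type and 90.0 and 92.1 in Pcgf5-/- cells, and its wild-type mean was above 95.6% of the genes tested. It fell to 68.0 and 64.2 in wild type, 1.85-fold in the means (log2 fold change -0.88 ± 0.12, adjusted p = 0.000687). Its fall in Pcgf5-/- cells was to 36.2 and 32.3, 2.66-fold in the means (-1.39 ± 0.12, adjusted p = 0.000273). At day 6 its mean was 1.93-fold lower in Pcgf5-/- cells (-0.93 ± 0.12, adjusted p = 0.00560). The fall of Stmn2 was not shown to differ between the genotypes (interaction -0.51 ± 0.175, adjusted p = 0.138).

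Both Pcgf5-/- samples were also below both wild-type samples of Stmn2 at day 0 (-0.42 ± 0.12, adjusted p = 0.133). Stmn3, on chromosome 2 from 181041164 to 181049205, rose from 2.30 and 4.60 FPKM to 20.5 and 15.0 in wild type (5.14-fold, 2.11 ± 0.29, adjusted p = 0.000655) and from 1.19 and 1.58 to 6.57 and 9.30 in Pcgf5-/- cells (5.74-fold, 1.89 ± 0.29, adjusted p = 0.00268). At day 6 its mean was 2.24-fold lower in Pcgf5-/- cells (-1.07 ± 0.29, adjusted p = 0.0419), and at day 0 the samples also lay apart in the same direction (-0.86 ± 0.29, adjusted p = 0.187). The interaction of Stmn3 was -0.21 ± 0.42, with a 95% confidence interval from -1.17 to 0.74.

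Stmn1, the stathmin of dividing cells, made up most of the family. At day 6 it held 77.2% and 79.0% of the summed FPKM in wild type, against 84.0% and 85.2% in Pcgf5-/- cells, and Stmn2 held 15.5% and 15.7% against 13.3% and 10.8%. Both other stathmins were lower in Pcgf5-/- cells at day 6, Stmn4 by -1.88 on the log2 scale (adjusted p = 0.0377) and Stmn1 by -0.45 (adjusted p = 0.0343), so that all 4 stathmin genes were called lower.

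**Figure D3:**
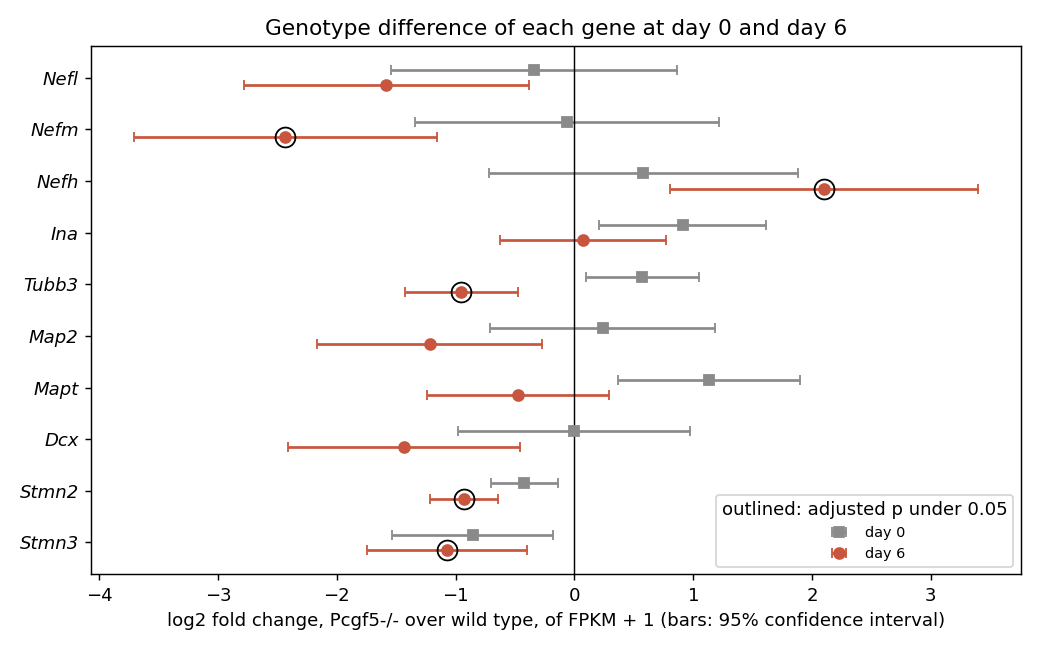
Log2 fold change of Pcgf5-/- over wild-type cells for each gene at day 0 (squares) and day 6 (circles), with 95% confidence intervals and an outline where the adjusted p was under 0.05. The 5 outlined genes at day 6 are Nefm (-2.43), Nefh (2.10), Tubb3 (-0.955), Stmn2 (-0.93) and Stmn3 (-1.07), and none is outlined at day 0.

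The calls at day 6 did not all stand on the same footing. Of these 5 genes, Stmn2 passed in all 16 alternative fits, Tubb3 in 12 of 16, Nefm in 11 of 16, Nefh in 8 of 17 and Stmn3 in 7 of 16, with no change of direction. Leaving out the first wild-type sample of day 6, or either Pcgf5-/- sample of day 6, left only Stmn2 past the threshold. Without the second wild-type sample of day 6 Dcx and Map2 passed beside Stmn2 and Tubb3 (adjusted p = 0.0120 and 0.0340), while Nefm, Nefh and Stmn3 did not.

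The spread between samples of 1 condition was wide for several of these genes. At day 0 the second sample exceeded the first by 1.62 (Nefl) and 1.73 (Nefm) on the log2(FPKM + 1) scale in wild type and by 0.98 and 1.23 in Pcgf5-/- cells, gaps larger than those of 96.9% to 99.5% of the genes tested. Nefh showed the same order, with gaps of 0.83 and 1.73. The feeder marker sums of the same pairs were 280.5 and 176.2 FPKM in wild type and 176.3 and 592.3 in Pcgf5-/- cells. The sample with the higher subunit levels thus had the lower feeder sum in wild type and the higher feeder sum in Pcgf5-/- cells, and the part of feeder cells in these gaps was not tested. In wild type at day 6 the first sample was the higher for all 10 genes, by 0.08 (Stmn2) to 1.53 (Dcx), and the sum of 16 other neuron markers was 155.4 and 116.4. In Pcgf5-/- cells at day 6 the first sample was the higher for 8 of the 10, with gaps of at most 0.53.

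Levels per transcript length can also be ranked among the members. In wild type at day 6 the order of mean FPKM was Tubb3, Nefm, Stmn2, Ina, Nefl, Map2, Stmn3, Dcx, Nefh and Mapt. Only Tubb3 and Nefm, and Stmn2 and Ina, lay apart among neighbours in that order; every other pair overlapped. In Pcgf5-/- cells at day 6 it was Tubb3, Ina, Stmn2, Nefh, Nefm, Nefl, Stmn3, Map2, Dcx and Mapt, where Stmn2 and Nefh overlapped, as did each neighbouring pair from Nefm to Map2. At day 0 Stmn2 stood first and Dcx last in both genotypes.

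Across the 8 samples the genes most like each member were ranked by Pearson's r of log2(FPKM + 1), a description in which the samples share 4 conditions. Map2 and Dcx were the most alike of the members (r = 0.987), Dcx standing at rank 13 among 13213 genes by likeness to Map2. Nefl and Nefm had r = 0.732, which put Nefm at rank 96 for Nefl but Nefl at rank 2416 for Nefm. Among the members Nefm was more like Tubb3 (0.88), Stmn3 (0.87), Dcx (0.82) and Map2 (0.76) than Nefl. The genes nearest to Dcx were Pax2 (r = 0.999), Add2 (0.998) and Nhlh2 (0.997), and those nearest to Map2 were Hspa12a (0.997) and Ncan (0.995). Nefh was close to no other member, with r between -0.48 and 0.25, and its nearest gene was Gpx7 (0.974). Mapt and Stmn2 had r = 0.56 to each other but went as low as -0.67 (Mapt to Stmn3) and -0.85 (Stmn2 to Ina).

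Related gene lists gave the setting at day 6. Of 11 other intermediate filament genes tested, 1 was higher and 2 were lower in Pcgf5-/- cells (median log2 fold change -0.63); nestin (Nes), the filament of neural progenitors, stood at 58.2 and 62.3 FPKM in wild type and 24.0 and 20.0 in Pcgf5-/- cells (-1.42, adjusted p = 0.00393). Of 11 axonal transport motor genes, 3 were lower and none higher (median -0.62), among them the kinesin Kif21a (-0.92, adjusted p = 0.0212) and the kinesin light chain Klc1 (-0.86, adjusted p = 0.0108). Of 13 neuron markers outside the cytoskeleton, 4 were lower and none higher (median -0.57), among them the neuronal RNA-binding proteins Elavl3 (-1.55, adjusted p = 0.00486) and Elavl4 (-1.18, adjusted p = 0.0186). The 9 not called included Gap43 (-1.38, adjusted p = 0.0506). Differences were smallest for Snap25 (-0.21, adjusted p = 0.552) and Rbfox3 (-0.15, adjusted p = 0.646). Chga (0.69, adjusted p = 0.0936) and Syn1 (0.41, adjusted p = 0.198) lay above 0 without being called.

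Markers of other cell states moved with the genotype as well. Of 10 neural progenitor markers, 9 were lower in Pcgf5-/- cells (median -1.28), and 7 of 8 pluripotency markers were higher (median 2.03). Of 10 feeder fibroblast markers none was called in either direction (median -0.58), of 5 glial markers 1 was higher (median 0.36), and of 7 markers of peripheral and neural crest neurons 2 were lower (median -0.68). The part of these cell states in the levels of the 10 genes was not tested.

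**Figure D4:**
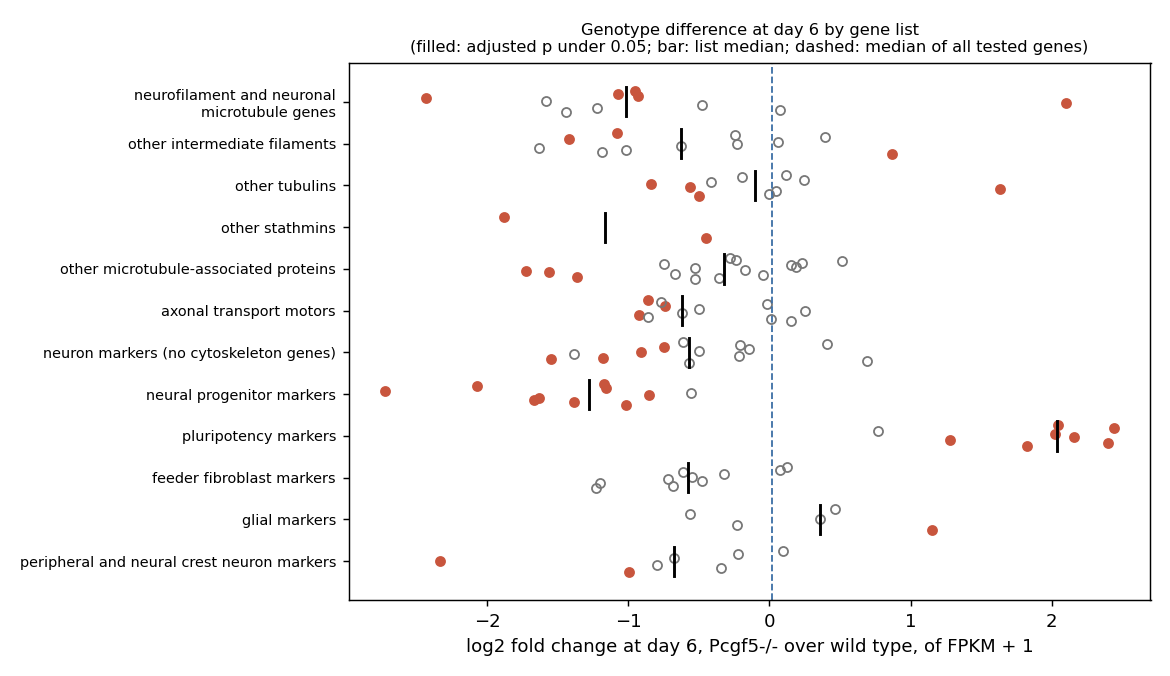
Log2 fold change of Pcgf5-/- over wild-type cells at day 6 for each tested gene of each list, filled where the adjusted p was under 0.05, with the list median as a bar and the median of all tested genes (0.02) as a dashed line. The neurofilament and neuronal microtubule genes had a median of -1.01, the neural progenitor markers -1.28 and the pluripotency markers 2.03. All lists were chosen with earlier results of these data known.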

How the data were processed

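RNA-seq of 8 samples was analysed, 2 for each genotype and day, grouped by the labels. Per the study's methods, the authors dropped short, duplicate and N-rich reads after trimming, aligned the remaining pairs to mm9 with TopHat2 and computed FPKM per gene with Cufflinks (2.0.4 and 2.1.1 in the submitters' processing notes); the annotation is not given in the sources used here. The deposited FPKM values are scaled for library size and transcript length and hold no counts, so no counting interval is given. Removal of duplicate reads can lower the values of abundant transcripts such as Tubb3 and Stmn2. Depth relative to the first Pcgf5-/- sample of day 0 was traced in low FPKM values. The authors' confidence bounds on FPKM were used only to check the files. Of the 24849 genes, 1074 to 1347 per sample had an FPKM outside its own bounds, and 371 per sample had a status other than OK. No gene was removed on these grounds.

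From FPKM, log2(FPKM + 1) was fitted with limma 3.58.1 (R 4.3.3; variance trend, 1 mean per condition, all 8 samples, no block) for genes with a mean FPKM over 1 in a condition. Adjusted p-values are from limma's moderated test with Benjamini-Hochberg adjustment over the 13214 genes, threshold 0.05; log2 fold changes understate those of low genes. Fold ratios are of mean FPKM. The fit was tested on simulated data. Tables and figures used Python 3.11.15, pandas 2.3.3, numpy 2.4.6 and matplotlib 3.10.9. The study calls its samples independent biological samples, and with 2 per condition p-values measure the spread between these samples only.

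The 10 genes and all gene lists were chosen with earlier results of these data known. Named were the 10 genes, Pcgf5, genes most alike in pattern, genes within 500 kb, and the members of each family. For several lists some of the 3 largest genotype differences of day 6 were named too. For the neuron markers these included Gap43, which was not called, and the 2 smallest differences, Snap25 and Rbfox3, with Chga and Syn1 added. In the other lists the genes named for their differences all had an adjusted p under 0.05. Large differences not called were left out there, such as Krt8 (-1.63, adjusted p = 0.102) and Kif1a (-0.86, adjusted p = 0.0637), as were the smallest differences. Annotation was GENCODE vM1 on mm9, and promoters were RefSeq's on GRCm38.p6, used for sequence only; no coordinates were converted. Alternatives were other pseudocounts and filters, quantile normalization, a replicate block, no variance trend, the compared groups only, subtraction of chromosome medians, and each sample left out in turn.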

Additional observations from a re-analysis of the deposited data

Results flagged for a closer look

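The genotype effect on Tubb3 differed between the days: the log2 fold change of Pcgf5-/- over wild-type cells was 0.57 ± 0.21 at day 0 and -0.955 ± 0.21 at day 6, a difference of -1.53 (SE 0.29, limma adjusted p = 0.0390). At day 0 both Pcgf5-/- samples were above both wild-type samples, and at day 6 both were below. Larger estimates with larger SE, those of Nefm (-2.37 ± 0.79) and Mapt (-1.61 ± 0.47), were not called. For Tubb3 the alternatives were read as well. The difference passed the threshold in 5 of 15 alternative fits and in none of the 8 that left out a sample, and it kept its direction in each of the 15 (-1.77 to -1.28).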

How the results depend on the processing

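The count of members called in wild type between the days was 7 to 8 in each alternative, and at day 0 it was 0 in each. At day 6 the genotypes differed in 5 members, 1 without the filter on low values (more genes tested) and 1 to 5 with a sample left out. In Pcgf5-/- cells between the days 7 members were called, 4 to 8 with a sample left out; 4 came without the first sample of either day, when Tubb3, Map2 and Dcx no longer passed. The interaction had 1 member, 0 without the filter and 0 to 0 with a sample left out.

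The labels do not say that equal replicate numbers mark a shared culture or day, and whether they pair the samples is unsettled: across genes the deviations of same-numbered samples correlated at 0.39 between the genotypes at day 6, at 0.10 at day 0 and at -0.08 to -0.02 between the days. In the fit with a replicate block, 6 members were lower and 0 higher at day 6: Map2 (0.0462) and Dcx (0.0414) passed and Nefh (0.0525) did not. Under the block the interaction of Tubb3 had adjusted p = 0.0508 and that of Mapt 0.0395, and Tubb3 between the days in Pcgf5-/- cells had 0.0577.

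Directions turned only for comparisons that had not passed in the main fit. Ina at day 6 was -0.0023 under quantile normalization and -0.18 to 0.32 with a sample left out. The interaction of Stmn3 was 0.0373 and 0.0786 with pseudocounts of 0.1 and 0.01 and -0.60 to 0.17 with a sample left out. With a sample left out, the wild-type change between the days was -0.16 to 1.46 for Nefl and -0.50 to 0.35 for Mapt, that of Nefm in Pcgf5-/- cells -0.0722 to 1.16, and the genotype difference of day 0 -1.15 to 0.47 for Nefl, -0.93 to 0.80 for Nefm, -0.29 to 1.45 for Nefh and -0.14 to 0.61 for Map2. Nefl at day 6 passed in 4 of 16 alternatives. Why these values moved was not tested. With no counts in the files, depth sets no limit that could be computed.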
